A study of Mus musculus with 9 samples.

Results

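The transcripts described here are 10 ERK feedback genes in mouse peritoneal macrophages: the dual-specificity phosphatase genes Dusp1, Dusp2, Dusp4, Dusp5 and Dusp6, the Sprouty genes Spry1, Spry2 and Spry4, and the Spred genes Spred1 and Spred2. They were chosen by name as transcriptional readouts of RAS-ERK signaling downstream of the phosphatase SHP2, and each was found by its symbol. They are 10 of the 54059 genes in the table of RNA levels. A mean level of at least 1 FPKM (fragment counts scaled to transcript length and library depth) over the 9 libraries was reached by 11450 genes, which were tested, and 9 of the 10 feedback genes are among them.

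C57BL/6 mice, 8 weeks old by their labels, received starch broth into the abdomen, peritoneal cells were collected by lavage 3 days later, and the adherent macrophages were stimulated in culture for 4 h with imiquimod (IMQ), a TLR7 agonist. The wild-type group (3 libraries) received IMQ at 10 µg/ml, and the SHP099 group (3 libraries) consisted of wild-type cells given 10 µM of SHP099, an allosteric inhibitor of SHP2, for 2 h before the same stimulus. The M-Shp2-/- group (3 libraries) came from mice that carry a floxed Shp2 gene (Ptpn11) and the Lyz2-cre transgene, which deletes it in monocytes, mature macrophages and granulocytes, and the IMQ concentration for this experiment is not stated. The sample labels name the SHP099 group, and the IMQ stimulus, doses and times are given by the study's text. The study describes the wild-type cells as untreated with SHP099. Whether they received its solvent, and how many mice contributed to a library, is not stated, so that p-values measure the spread between these samples. No unstimulated sample was analysed here, so induction by IMQ was not measured. M-Shp2-/- and SHP099 were each compared with the same 3 wild-type libraries, and then directly with each other. Each library rests on 39842465 to 50980437 reads.

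Growth factor and cytokine receptors activate ERK through RAS and a chain of kinases, and SHP2 is needed by many receptors to switch RAS on. ERK then induces its own inhibitors: dual-specificity phosphatases (DUSPs) remove phosphate from MAP kinases, and Sprouty and Spred proteins hold back the steps above ERK. The RNA of these inhibitors is therefore widely used as a readout of ERK activity, although several of them also respond to p38, JNK and other signals that Toll-like receptors raise in macrophages.

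Ptpn11, the deleted gene, was measured first. It stood at 45.8, 44.0 and 40.0 FPKM in wild-type libraries 1 to 3, at 18.6, 17.8 and 18.9 FPKM in M-Shp2-/- and at 43.0, 42.1 and 39.6 FPKM with SHP099. All 3 M-Shp2-/- libraries lay below all others, and the wild-type and SHP099 libraries overlapped. The log2 fold change (computed on FPKM + 1, as are all below, which understates the change of low genes) was -1.19 in M-Shp2-/- against wild type (95% CI -1.42 to -0.96, adjusted p = 0.0168) and -0.05 with SHP099 (95% CI -0.26 to 0.15, adjusted p = 0.729). With a library left out, the first of these values ranged from -1.24 to -1.15. Its adjusted p exceeded 0.05 without wild-type 1, wild-type 2, M-Shp2-/- 1 or M-Shp2-/- 2 (0.105, 0.125, 0.196 and 0.151). It was 0.157 with the replicate number as a block, and also without the library of each group richest in fibroblast marker RNA.

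The macrophage label was checked against marker genes. Of 8 macrophage markers, 8 had a mean of at least 1 FPKM, led by Lyz2, and their summed level was 10420, 13421 and 11189 FPKM in wild type, 7595, 7468 and 8412 FPKM in M-Shp2-/- and 11778, 13005 and 13736 FPKM with SHP099. The M-Shp2-/- mice carry their cre in the Lyz2 gene, and Lyz2, which makes up most of each sum, was lower there (4743 to 5407 FPKM) than in wild type (7440 to 10228 FPKM). Cd68 overlapped between these groups (1227 to 1740 FPKM in M-Shp2-/-, 1294 to 1498 FPKM in wild type), and Csf1r was highest with SHP099 (181 to 211 FPKM, against 58.2 to 111 FPKM in wild type and 71.8 to 176 FPKM in M-Shp2-/-). Mertk was lower in every M-Shp2-/- library (3.28 to 4.35 FPKM) than in any wild-type one (6.10 to 13.3 FPKM), and Adgre1, Cd14, Itgam and Fcgr1 overlapped between all groups. Gata6, Timd4 and Icam2, markers of resident large peritoneal macrophages, summed to only 3.54 to 6.59 FPKM over the 9 libraries.

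RNA of fibroblast markers differed widely between libraries of the same group. Of 7 fibroblast markers, 6 had a mean of at least 1 FPKM, Col1a1 was the most abundant and Lum was near 0 (at most 0.251 FPKM). Their sum was 67.5, 308 and 46.2 FPKM in wild-type libraries 1 to 3, 138, 54.0 and 592 FPKM in M-Shp2-/- and 364, 140 and 104 FPKM with SHP099, so that wild-type 2, M-Shp2-/- 3 and SHP099 1 were highest in their groups. Col1a1, Col1a2, Col3a1, Dcn, Pdgfra and Lum were each highest in these libraries, but Pdgfrb was not. Pdgfrb was highest in wild-type 3 (6.41 FPKM, against 4.99 in wild-type 2). It was lowest of its group in SHP099 1 (2.74 FPKM) and highest of its group in M-Shp2-/- 3 (5.96 FPKM). M-Shp2-/- 3 also stood apart in the whole profile: its correlation over genes (Pearson, log2 values) with M-Shp2-/- 1 and 2 was 0.967 and 0.954, against 0.992 between those libraries. Wild-type 3 correlated with wild-type 1 and 2 at 0.976 and 0.974, against 0.984 between those, and its median-of-ratios scaling factor was the lowest of the 9 libraries (0.849, others 0.979 to 1.10). Neutrophil markers summed to 35.2 to 96.5 FPKM, nearly all of it S100a8 (34.5 to 95.4 FPKM), and the other neutrophil markers were near 0 (S100a9 at most 1.11 FPKM, Retnlg at most 0.387, Ly6g at most 0.0362 and Cxcr2 at most 0.0352). Mesothelial markers summed to 1.42 to 8.97 FPKM and NK-cell markers to at most 0.155 FPKM. Endothelial, mast-cell and eosinophil markers were lowest in the SHP099 libraries, at 1.35 to 1.84, 0.355 to 0.463 and 0.0116 to 0.0368 FPKM, against 4.39 to 5.51, 2.44 to 5.20 and 0.367 to 0.571 FPKM in wild type. B-cell markers were lowest there too, at 0.455 to 1.28 FPKM, against 2.15 to 3.93 FPKM in wild type and 2.55 to 15.0 FPKM in M-Shp2-/-, as were dendritic-cell markers, at 0.619 to 0.784 FPKM against 0.809 to 1.13 and 1.33 to 1.60 FPKM. T-cell markers were at 3.56 to 5.40 FPKM with SHP099, 0.668 to 4.01 FPKM in wild type and 0.288 to 2.36 FPKM in M-Shp2-/-. In such bulk samples, fewer cells of a type and less RNA per cell cannot be told apart.

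Within the wild-type group, levels per transcript length spanned more than 3 orders of magnitude. Dusp4 (62.9 ± 11.9 FPKM, SD, n = 3) and Spred1 (62.2 ± 3.74) were highest and overlapped with each other, followed without overlap by Dusp1 (31.8 ± 2.53). Dusp2 (17.0 ± 7.25), Dusp6 (13.1 ± 6.90) and Spred2 (10.7 ± 0.824) overlapped as neighbours. Dusp5 (4.01 ± 0.365) lay below these without overlap, then came Spry1 (2.48 ± 0.416) and Spry2 (1.82 ± 0.830), which overlapped, and Spry4 (0.0589 ± 0.0675) was last. In M-Shp2-/- the order of means was the same apart from Spry2 (2.34 ± 0.787) above Spry1 (2.04 ± 0.851). There Dusp1 to Spred2 overlapped from neighbour to neighbour, as did Dusp5, Spry2 and Spry1. With SHP099, Spred1 (78.4 ± 4.67) stood above Dusp4 (71.8 ± 2.49) without overlap, Dusp6 (6.30 ± 0.927) below Dusp2 (12.4 ± 2.70) without overlap, and Dusp5 (1.75 ± 0.172) lay among the Sprouty genes, overlapping Spry1 above it and Spry2 below it.

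**Figure D1:**
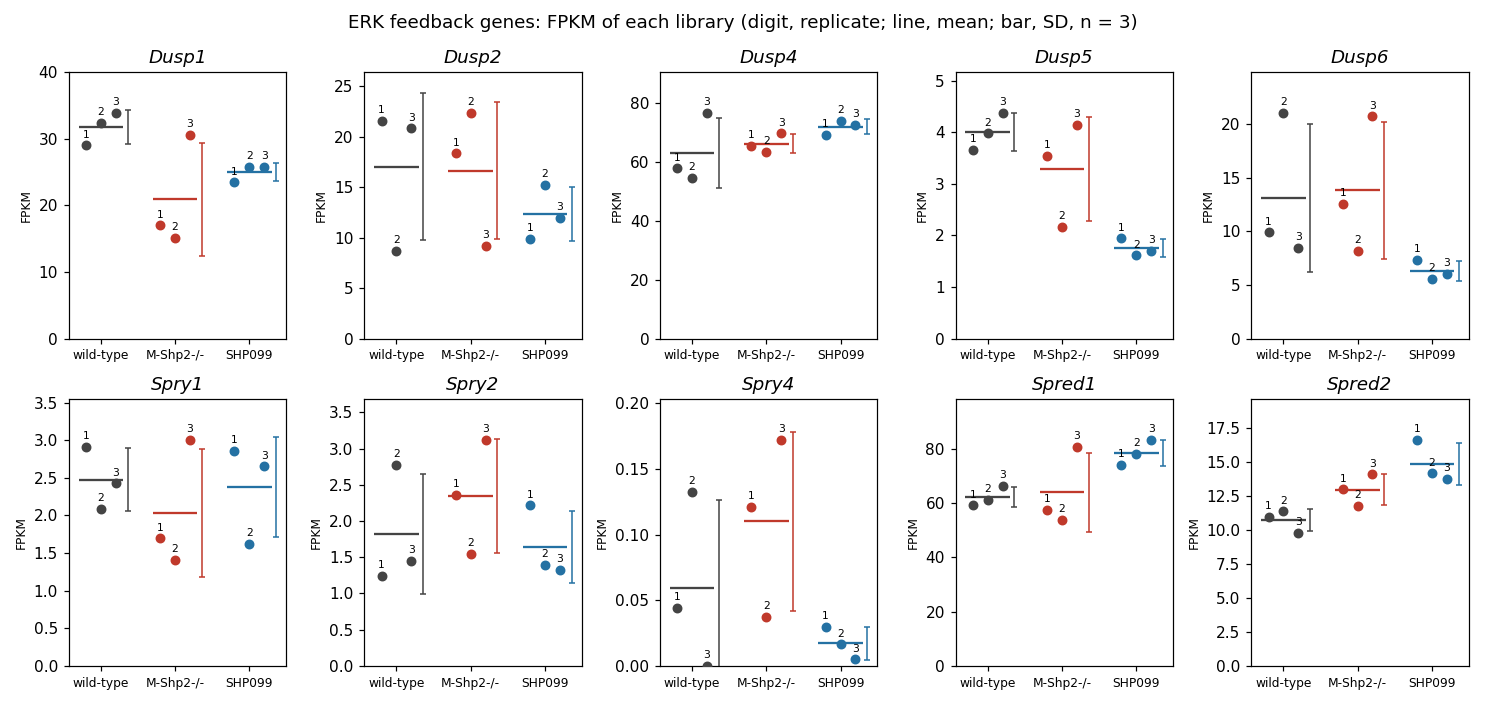
FPKM (y axis, linear from 0) of each of the 10 ERK feedback genes in each library, by group (x axis); points are libraries with their replicate number, horizontal lines group means and vertical bars SD (n = 3). Dusp5 lies at 1.61 to 1.94 FPKM in the SHP099 libraries, below all others, and Dusp6 and Spry2 are highest in wild-type 2 and M-Shp2-/- 3.

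M-Shp2-/- macrophages were compared with wild type to ask how the feedback genes stand in mice with the Shp2 deletion. Ptpn11 RNA was not absent there (17.8 to 18.9 FPKM, against 40.0 to 45.8 FPKM in wild type). The source of this remaining RNA was not tested. No feedback gene passed the test. With 0.005 as the limit of the adjusted p and 1 as the smallest log2 fold change in either direction, limma called 0 of 9, beside 0.00873% of the 11450 genes. At an adjusted p of at most 0.05 it called 0 of 9 in either direction, beside 0.0873% of all genes lower and 0% higher. At an unadjusted p under 0.05 there was 1 of 9, Dusp1 (1204 of all 11450 genes), and limma's voom on recovered reads also called 0. Libraries did not overlap between groups for 0 genes lower (3.07% of all genes) and 1 higher, Spred2 (16% of all genes), a share near that of all genes. The median log2 fold change of the 9 genes was 0.02, against 0.15 for all genes tested, and scaling by median of ratios moved that all-gene median by 0.14. Relative to the all-gene median, the values were -0.79 for Dusp1, -0.40 for Dusp5, -0.37 for Spry1, -0.16 for Dusp2, -0.13 for Spred1, -0.0666 for Dusp6, -0.0647 for Dusp4, 0.10 for Spred2 and 0.11 for Spry2. Under this scaling the values of Dusp4, Dusp6 and Spred1 changed sign.

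Inhibition with SHP099 was compared with wild type to ask the same of macrophages that hold SHP2 but in which it is blocked. Dusp5, a nuclear phosphatase specific for ERK, was lower with SHP099, and no other feedback gene passed an adjusted p of 0.05. limma called 0 of 9 at the stricter rule (0.166% of all genes), and 1 lower and 0 higher at an adjusted p of at most 0.05 (2.41% of all genes lower and 4.55% higher). At an unadjusted p under 0.05 there were 5 of 9 (3061 of all 11450 genes), and voom called the same number as limma at both rules, 0 and 1. Libraries did not overlap for 3 genes lower, Dusp1, Dusp5 and Dusp6 (6.77% of all genes), and for 2 higher, Spred1 and Spred2 (27.9% of all genes). The median log2 fold change was -0.07, against 0.13 for all genes, which median-of-ratios scaling moved by 0.13. Relative to all genes, Dusp2 was at -0.48, Dusp4 at 0.0750, Spry1 at -0.18 and Spry2 at -0.20, and the other values are given with each gene. Dusp5 was the only feedback gene past 0.05 under that scaling and under quantile normalization too. With that scaling more of all genes were lower (3.28%) than higher (1.75%), and with quantile normalization 3.11% were lower and 3% higher. Leaving out wild-type 2 gave 0 of 9 at 0.05, beside 1.51% of all genes lower and 1.97% higher. Leaving out SHP099 1, 2 or 3 also gave 0, beside 0.603%, 0.323% and 0.646% lower and 0.183%, 0.0873% and 0.367% higher. Without wild-type 3 there were 3: Dusp5, Dusp4 and Spred1, at adjusted p of 0.0209, 0.0325 and 0.0339. There 4.07% of all genes were lower and 7.05% higher.

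M-Shp2-/- and SHP099 were then compared directly, which tests whether their effects differ with no wild-type library involved. No feedback gene differed by the test. limma called 0 of 9 at the stricter rule (0% of all genes). With a limit of 0.05 it also called 0 (0.0437% of all genes lower in M-Shp2-/- and 0.0262% higher), and voom called 0. At an unadjusted p under 0.05 there were 2 of 9 (1437 of all 11450 genes), Dusp5 and Dusp6, which were also the 2 genes whose libraries were higher in M-Shp2-/- without overlap (7.9% of all genes), while 0 were lower without overlap (9.76%). Without M-Shp2-/- 3 the count at an adjusted p of at most 0.05 was 3 of 9: Dusp1 (-0.61) and Spred1 (-0.49) lower and Dusp2 (0.69) higher in M-Shp2-/-, at adjusted p of 0.00765, 0.00919 and 0.0417. Without that library 7.89% of all genes were lower and 12% higher by the same limit. With all 6 libraries the fold changes of Dusp1, Spred1 and Dusp2 were -0.31, -0.31 and 0.34, and without M-Shp2-/- 2 they were -0.12, -0.20 and 0.09. Over 17 alternatives the adjusted p of these genes ranged to 0.940, 0.837 and 0.965.

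**Figure D2:**
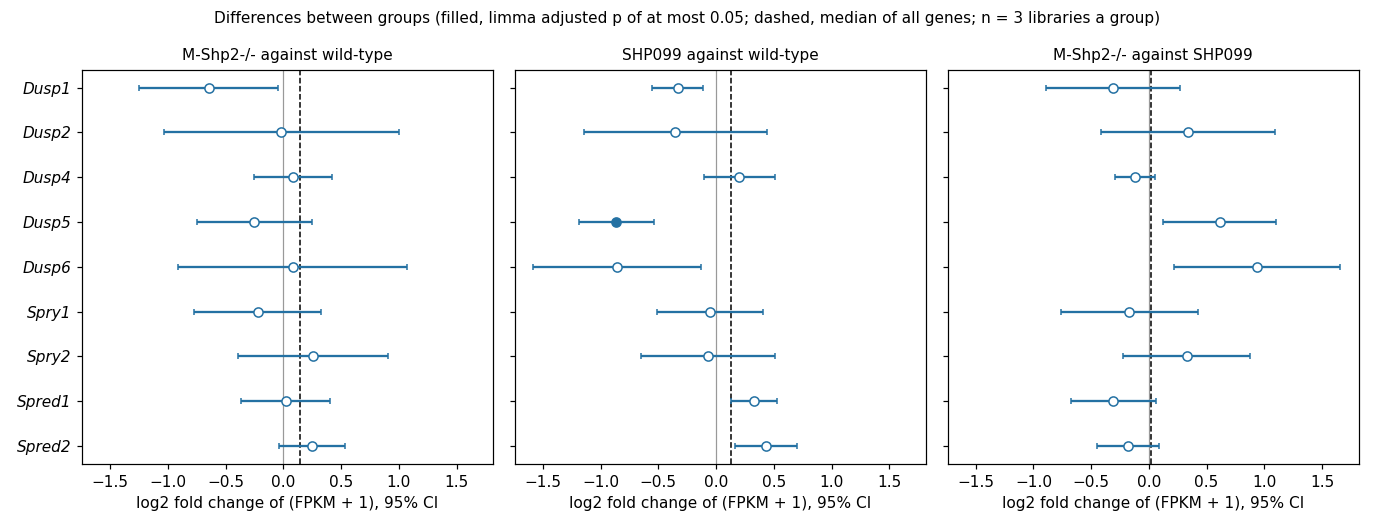
Log2 fold change of FPKM + 1 (x axis) of the 9 tested feedback genes in the 3 comparisons, with 95% CI; filled points have a limma adjusted p of at most 0.05, and dashed lines mark the median of all genes tested (0.15, 0.13 and 0.02). Dusp5 with SHP099 (-0.86) is the only filled point.

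Dusp5 (ENSMUSG00000034765, chr19:53529109-53542431, plus strand, GRCm38) showed 3.65, 3.98 and 4.38 FPKM in wild-type libraries 1 to 3, 3.54, 2.17 and 4.14 FPKM in M-Shp2-/- and 1.94, 1.61 and 1.70 FPKM with SHP099. All 3 SHP099 libraries lay below every other library, and the M-Shp2-/- libraries overlapped with wild type, M-Shp2-/- 2 being low. These levels rest on 401, 502 and 461 reads, 378, 221 and 467 reads, and 211, 159 and 184 reads. The log2 fold change with SHP099 was -0.86 (SE 0.14, 95% CI -1.18 to -0.54, adjusted p = 0.0209), or -0.99 relative to all genes, and lower in 3 of 3 libraries. In M-Shp2-/- it was -0.25 (95% CI -0.75 to 0.25, adjusted p = 0.585), with -0.0488 without M-Shp2-/- 2 and -0.40 without M-Shp2-/- 3. The direct difference was 0.61 (95% CI 0.13 to 1.10, adjusted p = 0.345). With SHP099 against wild type, Dusp5 passed 0.05 under 10 of 16 alternatives, with fold changes from -1.19 to -0.42 and adjusted p from 0.0165 to 0.142. Leaving out SHP099 1, 2 or 3 or wild-type 2 gave adjusted p of 0.0779, 0.119, 0.0728 and 0.0503 at fold changes of -0.91, -0.83, -0.85 and -0.87. An antisense gene with no value in the table overlaps Dusp5, as Gm42922 (at most 0.111 FPKM) overlaps Spry1.

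Dusp6 (ENSMUSG00000019960, chr10:99263231-99267489, plus strand), which encodes a cytoplasmic phosphatase specific for ERK, was at 9.89, 21.1 and 8.47 FPKM in wild type, 12.6, 8.15 and 20.7 FPKM in M-Shp2-/- and 7.34, 5.56 and 6.01 FPKM with SHP099. Wild-type 2 and M-Shp2-/- 3 were far above the other libraries of their groups, and all SHP099 libraries were below all others. The log2 fold change with SHP099 was -0.86 (95% CI -1.58 to -0.13, adjusted p = 0.135), or -0.98 relative to all genes, and it was -0.48 without wild-type 2 and -1.09 without wild-type 3. In M-Shp2-/- it was 0.08 (95% CI -0.91 to 1.07, adjusted p = 0.929), a wide interval, as wild-type 2 and M-Shp2-/- 3 lay far from their groups. The direct difference of 0.94 had an adjusted p of 0.335, and was 0.62 without M-Shp2-/- 3.

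Dusp1 (ENSMUSG00000024190, chr17:26505590-26562128, minus strand) encodes a nuclear phosphatase that acts mainly on p38 and JNK and limits Toll-like receptor responses. It was at 29.0, 32.4 and 34.0 FPKM in wild type, 17.0, 15.1 and 30.6 FPKM in M-Shp2-/- and 23.5, 25.9 and 25.8 FPKM with SHP099. M-Shp2-/- 1 and 2 were low and M-Shp2-/- 3 lay within the wild-type range, whereas the SHP099 libraries were close to each other and below all wild-type ones. The log2 fold change was -0.65 in M-Shp2-/- (95% CI -1.25 to -0.04, adjusted p = 0.465), or -0.79 relative to all genes. With SHP099 it was -0.33 (95% CI -0.55 to -0.11, adjusted p = 0.0785), or -0.46 relative to all genes. Exons of Ergic1, on the opposite strand, overlap those of Dusp1, and Ergic1 was at 24.7 to 50.8 FPKM. The strand on which reads were counted is not stated, so reads of the pair may not have been told apart.

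Dusp2, a nuclear phosphatase gene of activated immune cells, was at 21.6, 8.68 and 20.8 FPKM in wild type, 18.4, 22.4 and 9.20 FPKM in M-Shp2-/- and 9.87, 15.2 and 12.0 FPKM with SHP099. Wild-type 2, M-Shp2-/- 3 and SHP099 1 were lowest in their groups, and all groups overlapped. Log2 fold changes were -0.02 in M-Shp2-/- (95% CI -1.04 to 1.01) and -0.35 with SHP099 (95% CI -1.15 to 0.44), at adjusted p of 0.987 and 0.552. With a library left out, the value with SHP099 ranged from -0.75 (without wild-type 2) to -0.14 (without wild-type 1), and was -0.17 without wild-type 3 and -0.22 without SHP099 1.

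Dusp4, a nuclear phosphatase gene for ERK and JNK, was at 57.7, 54.5 and 76.6 FPKM in wild type, 65.3, 63.2 and 69.5 FPKM in M-Shp2-/- and 69.0, 73.8 and 72.5 FPKM with SHP099. Wild-type 3 was the highest of the 9 libraries and all groups overlapped. Log2 fold changes were 0.08 in M-Shp2-/- (95% CI -0.26 to 0.42) and 0.20 with SHP099 (95% CI -0.11 to 0.51), at adjusted p of 0.776 and 0.376. The value with SHP099 was 0.11 without wild-type 2, 0.35 without wild-type 3 and 0.0591 with median-of-ratios scaling.

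The Sprouty genes had the lowest means of the feedback genes in wild type and M-Shp2-/-, and with SHP099 Dusp5 lay among them. Spry1 was at 2.91, 2.09 and 2.43 FPKM in wild type, 1.70, 1.41 and 3.01 FPKM in M-Shp2-/- and 2.86, 1.62 and 2.66 FPKM with SHP099. Spry2 was at 1.24, 2.77 and 1.45 FPKM in wild type, 2.36, 1.55 and 3.12 FPKM in M-Shp2-/- and 2.22, 1.40 and 1.32 FPKM with SHP099. For both genes all groups overlapped. The fold changes of Spry1 were -0.22 in M-Shp2-/- (95% CI -0.77 to 0.33) and -0.05 with SHP099 (95% CI -0.52 to 0.41), and those of Spry2 were 0.26 (95% CI -0.40 to 0.91) and -0.07 (95% CI -0.65 to 0.51). With a library left out, the values in M-Shp2-/- ranged from -0.44 (without M-Shp2-/- 3) to -0.0738 (without M-Shp2-/- 2) for Spry1 and from 0.0915 (without M-Shp2-/- 3) to 0.48 (without wild-type 2) for Spry2. Spry4, with a mean of 0.0620 FPKM, was not tested. It rested on 9, 32 and 0 reads in wild type, 25, 7 and 37 reads in M-Shp2-/- and 6, 3 and 1 reads with SHP099. In wild-type 3, 0 reads allow a level of up to 0.0148 FPKM (3 reads, counting error only). The wild-type values overlapped with those of both other groups, and all M-Shp2-/- values (0.0371 to 0.172 FPKM) lay above all SHP099 values (0.00497 to 0.0298 FPKM). The closest values of these groups rest on 7 reads in M-Shp2-/- and 6 reads with SHP099, so counting error alone could undo this separation.

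Spred1 and Spred2 encode membrane-bound inhibitors that bring the RAS-inactivating protein neurofibromin to RAS. Spred1 was at 59.1, 61.1 and 66.3 FPKM in wild type, 57.5, 53.8 and 80.6 FPKM in M-Shp2-/- and 73.9, 78.0 and 83.3 FPKM with SHP099. Spred2 was at 11.0, 11.4 and 9.78 FPKM in wild type, 13.0, 11.8 and 14.1 FPKM in M-Shp2-/- and 16.6, 14.2 and 13.8 FPKM with SHP099. In FPKM without further scaling, both genes were higher in every SHP099 library than in any wild-type one, as were 27.9% of all genes. Spred2 was also higher in every M-Shp2-/- library than in any wild-type one, as were 16% of all genes. With SHP099 the log2 fold changes were 0.33 for Spred1 (95% CI 0.13 to 0.53, adjusted p = 0.0601) and 0.43 for Spred2 (95% CI 0.17 to 0.70, adjusted p = 0.0653), or 0.20 and 0.31 relative to all genes. In M-Shp2-/- they were 0.02 (95% CI -0.37 to 0.40) and 0.25 (95% CI -0.04 to 0.54), at adjusted p of 0.956 and 0.479. With median-of-ratios scaling the values with SHP099 were 0.19 for Spred1 and 0.30 for Spred2, at limma adjusted p of 0.437 and 0.0978.

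The libraries richest in fibroblast marker RNA, wild-type 2, M-Shp2-/- 3 and SHP099 1, held the highest level of Dusp6, Spry2, Spry4 and Spred2 and the lowest of Dusp2 in each of the 3 groups. The same libraries had the highest sum of mesothelial markers in their groups (7.57, 8.97 and 5.81 FPKM). Of these 4 markers only Wt1 had a mean of at least 1 FPKM, and it was highest in the same libraries (4.39, 6.25 and 4.34 FPKM). Msln, Upk3b and Krt19 were instead highest in SHP099 2 within the SHP099 group (0.772, 0.590 and 0.537 FPKM). In M-Shp2-/-, Krt19 was highest in library 1 (0.967 FPKM). Wild-type 2 and M-Shp2-/- 3 were also highest of their groups in S100a8 (91.3 and 95.4 FPKM). Over all genes tested, 9.75% were highest and 2.42% lowest in these same 3 libraries. Dusp5 was highest in the fibroblast-rich library of 2 of the 3 groups (4.14 FPKM in M-Shp2-/- 3 and 1.94 FPKM in SHP099 1), and in wild type it was highest in library 3 (4.38 FPKM), whose fibroblast sum was the lowest. Without these 3 libraries the log2 fold change with SHP099 was -0.91 for Dusp5 (adjusted p = 0.142) and -0.58 for Dusp6 (adjusted p = 0.237). For Dusp2 it was -0.61 (adjusted p = 0.203). No feedback gene then passed 0.05 against wild type, beside 0.376% of all genes lower and 0.0611% higher with SHP099. In M-Shp2-/- these shares were 0.00873% each way. In the direct comparison 2 of 9 then passed, Dusp1 (-0.65, adjusted p = 0.00970) and Spred1 (-0.53, adjusted p = 0.0104), both lower in M-Shp2-/-, beside 6.46% of all genes lower and 11.5% higher. The part of RNA from fibroblasts or other cells in the levels of these genes was not tested.

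**Figure D3:**
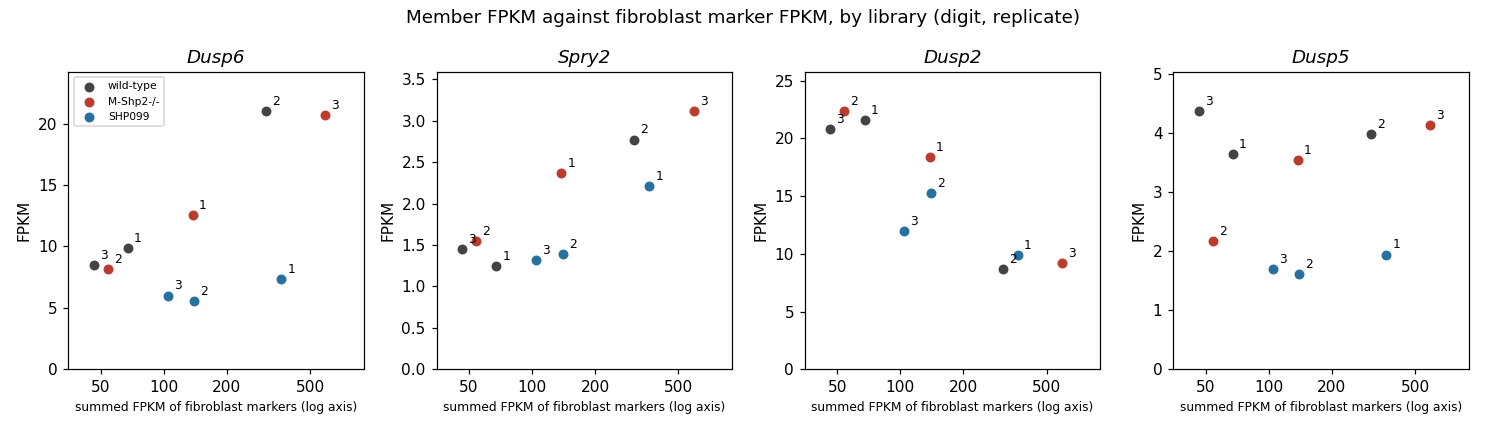
FPKM of Dusp6, Spry2, Dusp2 and Dusp5 (y axes, linear from 0) against the summed FPKM of 7 fibroblast markers (x axis, logarithmic) in the 9 libraries, numbered by replicate. Dusp6 and Spry2 are highest and Dusp2 lowest at the largest sum of each group, while Dusp5 is highest there in M-Shp2-/- (4.14 FPKM) and SHP099 (1.94 FPKM) but not in wild type (3.98 FPKM, against 4.38 in wild-type 3).

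The promoters of Dusp5, Dusp1 and Dusp6 are shown because these were the genes whose SHP099 libraries all lay below wild type. The RefSeq promoter table (GRCm38.p6), 250 bases before to 50 after a start site, held 8 of the 10 feedback genes, all but Dusp4 and Spry4. Both strands were searched for TGACGTCA (the cAMP response element), for TGAGTCA or TGACTCA (the AP-1 site), for CCGGAAGT (an ETS site) and for the CArG box (the site of serum response factor), which were present in 1.79%, 5.20%, 3.89% and 1.63% of 32817 promoters. The matches found in these windows do not overlap one another. Capitals mark a match. The window of Dusp5 (chr19:53528895-53529194, plus strand) holds 2 CArG boxes next to each other, at -82 to -73 and -72 to -63 from the start site. That of Dusp1 (chr17:26508423-26508722, minus strand) holds TGACGTCA, at -143 to -136 from the start site. That of Dusp6 (chr10:99262981-99263280, plus strand) and those of Dusp2, Spry1, Spry2, Spred1 and Spred2 hold none of these letters. A match is a description of the sequence, and no binding was measured.
Dusp5: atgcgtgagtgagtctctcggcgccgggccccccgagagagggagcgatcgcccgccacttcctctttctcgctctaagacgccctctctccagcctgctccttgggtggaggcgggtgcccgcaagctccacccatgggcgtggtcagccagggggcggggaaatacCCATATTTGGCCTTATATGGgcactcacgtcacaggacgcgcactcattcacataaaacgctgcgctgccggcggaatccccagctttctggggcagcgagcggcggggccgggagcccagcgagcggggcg
Dusp1: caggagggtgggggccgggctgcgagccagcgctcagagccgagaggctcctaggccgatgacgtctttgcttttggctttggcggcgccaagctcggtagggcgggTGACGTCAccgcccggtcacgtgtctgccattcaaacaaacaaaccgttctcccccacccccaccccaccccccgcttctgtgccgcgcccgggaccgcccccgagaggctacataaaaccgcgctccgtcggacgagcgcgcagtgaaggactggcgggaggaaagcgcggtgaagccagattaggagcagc
Dusp6: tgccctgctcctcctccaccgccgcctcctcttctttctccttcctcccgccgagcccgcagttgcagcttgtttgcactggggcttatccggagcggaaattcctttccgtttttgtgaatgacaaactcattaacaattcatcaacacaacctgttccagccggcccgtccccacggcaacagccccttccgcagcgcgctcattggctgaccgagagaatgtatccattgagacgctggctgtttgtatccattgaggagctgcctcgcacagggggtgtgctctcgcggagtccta

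The genes most like Dusp5 over the 9 libraries, by the smallest root-mean-square difference of centred log2 values among 11441 genes, were Noct (0.162), Samsn1 (0.173) and Pde7b (0.178), against an SD of 0.430 of Dusp5 itself. Noct was at 4.69, 6.55 and 5.71 FPKM in wild type, 4.06, 3.36 and 5.51 FPKM in M-Shp2-/- and 3.09, 2.26 and 1.74 FPKM with SHP099. Samsn1 lay at 93.4 to 98.7, 59.7 to 84.4 and 55.5 to 63.8 FPKM and Pde7b at 1.84 to 2.88, 1.53 to 1.67 and 0.676 to 0.957 FPKM in the same order of groups. For Samsn1 and Pde7b all M-Shp2-/- libraries were below all wild-type ones, unlike Dusp5.

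Other genes of the pathway were read from lists, which were chosen with earlier results of these data known. Their counts are therefore a description and no independent test. Of 26 transcripts listed as ERK-dependent outside the feedback genes, 20 were tested. With SHP099, 7 were lower and 2 higher at an adjusted p of at most 0.05, beside 2.41% and 4.55% of all genes. With all 6 libraries, the counts of the lists below are to be read against the same shares. Those in M-Shp2-/- at an unadjusted p under 0.05 are to be read against 1204 of 11450 genes. With median-of-ratios scaling the shares with SHP099 were 3.28% lower and 1.75% higher. Counts with libraries left out have shares of their own, which stand beside them. The median log2 fold change of the 20 was -0.30, where that of all genes was 0.13. voom called 6 lower and 2 higher. Hbegf, an EGF-family growth factor, was at 9.87, 10.9 and 8.74 FPKM in wild type, 3.87, 4.11 and 3.23 FPKM in M-Shp2-/- and 1.56, 1.05 and 1.42 FPKM with SHP099, so that the groups did not overlap. Its log2 fold change with SHP099 was -2.21 (95% CI -2.56 to -1.86, adjusted p = 0.00289), and it was the only gene of this list called by the stricter rule. The study had also reported lower Hbegf with SHP099, by quantitative PCR.

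Lif, a cytokine of the interleukin-6 family, was at 75.3, 83.9 and 95.2 FPKM in wild type, 32.0, 30.8 and 54.8 FPKM in M-Shp2-/- and 16.6, 14.8 and 28.2 FPKM with SHP099. Its log2 fold change with SHP099 was -2.09 (adjusted p = 0.00846). Fos, a subunit of AP-1, was at 9.29, 9.13 and 2.73 FPKM in wild type, 6.19, 4.98 and 5.60 FPKM in M-Shp2-/- and 1.19, 1.17 and 1.32 FPKM with SHP099. All SHP099 libraries were below all others, and wild-type 3 was far below the other wild-type libraries. Its log2 fold change with SHP099 was -1.71 (adjusted p = 0.0445) and passed 0.05 under 5 of 16 alternatives (adjusted p 0.00394 to 0.220), among libraries left out only without wild-type 3. The transcription factor genes Etv5 (0.94, adjusted p = 0.0142) and Jun (0.44, adjusted p = 0.0438) were higher with SHP099. Etv5 missed 0.05 without any of the SHP099 libraries, and Jun also without wild-type 1 or 2, whereas Hbegf and Lif passed it with any library left out. Without the 3 libraries richest in fibroblast marker RNA, 2 genes of the list were lower and 0 higher, beside 0.376% and 0.0611% of all genes. Without SHP099 1, 2 or 3, 3 were lower each time, beside 0.603%, 0.323% and 0.646% of all genes. The number higher was then 0, beside 0.183%, 0.0873% and 0.367%. Without wild-type 1 or 2, 4 were lower (1.32% and 1.51% of all genes) and 1 higher (1.16% and 1.97%). Without wild-type 3, 6 were lower and 3 higher (4.07% and 7.05%).

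In M-Shp2-/- the same list held 0 of 20 at an adjusted p of at most 0.05, with 6 at an unadjusted p under 0.05 and 0 by voom, and a median of -0.14 against 0.15 for all genes. The largest fold changes were those of Hbegf (-1.20, 95% CI -1.54 to -0.85, adjusted p = 0.0846) and Lif (-1.14, 95% CI -1.68 to -0.59, adjusted p = 0.388), and for both all M-Shp2-/- libraries were below all wild-type ones. Hbegf passed 0.05 under 3 of 16 alternatives (adjusted p 0.0153 to 0.577): the median-of-ratios and quantile scalings and the fit of all 9 libraries. Lif passed under 1 of 17, without M-Shp2-/- 3 (0.0473, others up to 0.890). Directly compared, Fos was higher in M-Shp2-/- than with SHP099 (1.56, 95% CI 1.25 to 1.87, adjusted p = 0.0163). With all 6 libraries it was the only gene of the 5 lists past 0.05 there. Fos missed 0.05 without any library of these groups but M-Shp2-/- 3 (adjusted p 0.0689 to 0.198). With a library left out, up to 6 ERK-dependent transcripts were lower and up to 3 higher. For the RAS-ERK cascade these numbers were 5 and 2, and for its further negative regulators 2 and 3. For the other MAP kinase phosphatases they were 1 and 2, and for the p38 and JNK pathway 3 and 0. Of all genes, 7.89% were lower and 12% higher without M-Shp2-/- 3.

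Of 26 genes of the RAS-ERK cascade itself, all tested, 1 was lower and 3 higher with SHP099. Rps6ka2, which encodes an ERK-activated kinase of the RSK family, was at 46.5, 36.7 and 40.2 FPKM in wild type, 48.2, 61.6 and 13.9 FPKM in M-Shp2-/- and 17.0, 16.4 and 15.0 FPKM with SHP099, and was called by the stricter rule (-1.29, adjusted p = 0.00443). M-Shp2-/- 3 lay below every SHP099 library for this gene, far from the other M-Shp2-/- libraries. Mknk2 (0.71, adjusted p = 0.0249) and Rras (0.64, adjusted p = 0.0258) were among the higher ones. Rps6ka2 passed 0.05 with any library left out. The number higher was 0 without each SHP099 library (0.183%, 0.0873% and 0.367% of all genes without SHP099 1, 2 and 3). It was 1 without wild-type 1 (1.16%), 2 without wild-type 2 (1.97%) and 6 without wild-type 3 (7.05%). In M-Shp2-/- 0 of 26 passed (2 at an unadjusted p under 0.05, 0 by voom), and the largest fold changes were 0.44 for both Mknk2 and Ksr1, at adjusted p of 0.454 and 0.571. The value of Ksr1 was 0.0566 without wild-type 3 and 0.78 without wild-type 2.

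Of 20 further negative regulators of RAS and ERK, 18 were tested, and with SHP099 1 was lower and 1 higher. Errfi1, an inhibitor of EGF receptors, was lower (-1.04, adjusted p = 0.0207), and Rasa3, a GTPase-activating protein, was higher (0.54, adjusted p = 0.0412). Errfi1 missed 0.05 without wild-type 1 or SHP099 2 or 3, and Rasa3 without any library but wild-type 3. With wild-type 3 left out, 2 were lower and 2 higher, beside 4.07% and 7.05% of all genes. In M-Shp2-/- 0 of 18 passed (1 at an unadjusted p under 0.05, 0 by voom), the largest fold changes being those of Rasa3 (0.64, adjusted p = 0.408) and Rasal2 (0.30, adjusted p = 0.527). That of Rasal2 was 0.14 without wild-type 3. Of 11 other MAP kinase phosphatases and family members, 7 were tested, and Dusp16, a phosphatase for JNK and p38, was lower with SHP099 (-0.52, adjusted p = 0.0309). It was at 36.6, 35.7 and 41.6 FPKM in wild type, 24.5, 20.9 and 33.2 FPKM in M-Shp2-/- and 25.5, 24.5 and 28.3 FPKM with SHP099. All M-Shp2-/- and SHP099 libraries were below all wild-type ones. Dusp16 missed 0.05 without any of the 6 libraries compared but wild-type 3. In M-Shp2-/- 0 of 7 passed (1 at an unadjusted p under 0.05, 0 by voom), Dusp16 (-0.54, adjusted p = 0.455) and Dusp19 (0.47, adjusted p = 0.531) having the largest fold changes. That of Dusp19 was 0.26 without wild-type 3 and 0.74 without M-Shp2-/- 3.

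Of 15 genes of the p38 and JNK pathway, 13 were tested, and with SHP099 Mapkapk3, a kinase activated by p38, was lower (-0.46, adjusted p = 0.0253) and Mapk8, which encodes JNK1, higher (0.49, adjusted p = 0.0365). Both missed 0.05 without any library but wild-type 3. Without that one 2 were lower and 1 higher, beside 4.07% and 7.05% of all genes. In M-Shp2-/- 0 of 13 passed (1 at an unadjusted p under 0.05, 0 by voom), and the largest fold changes were those of Zfp36 (-0.71, adjusted p = 0.478) and Mapkapk3 (-0.45, adjusted p = 0.341). That of Zfp36 was -0.35 without wild-type 3. Outside the ERK-dependent transcripts, the numbers of each list called with SHP099 by voom were the same as by limma.

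**Figure D4:**
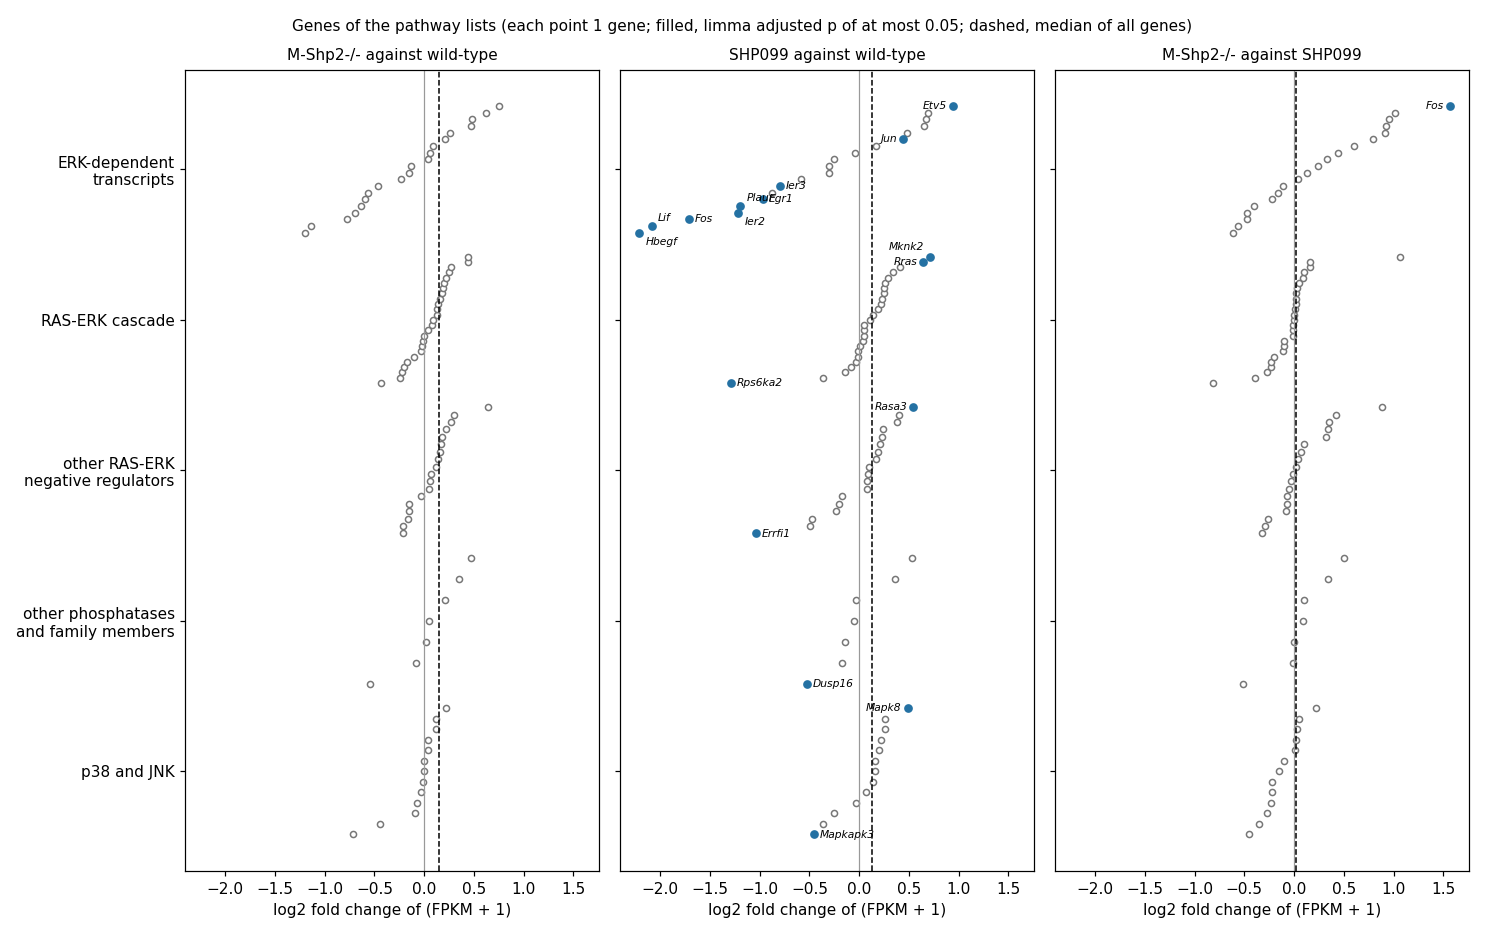
Log2 fold change of FPKM + 1 (x axis) of tested genes of the 5 pathway lists (rows) in the 3 comparisons; filled and named points have a limma adjusted p of at most 0.05, and dashed lines mark the median of all genes tested. With SHP099, 7 ERK-dependent transcripts are filled below 0 and 2 above, and in M-Shp2-/- against wild type no point is filled.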

How the data were processed

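The authors prepared poly-A RNA libraries, aligned the paired-end reads with HISAT2 2.0.4, counted them per gene with HTSeq 0.9.1 and deposited the values as FPKM, 1 column per library (CASAVA 1.8 is also named in the submitters' processing notes). The genome build, annotation and strand setting are not given in the sources used here. A table of assembled gene spans was not used. The authors compared groups with DESeq, which was not used here.

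Symbols and lengths came from GENCODE M21 (353 of 54059 genes are not in it). FPKM times mean transcript length gave whole reads (within 0.05) in 96.2% to 96.7% of values of up to 50 reads, where 10% would be whole by chance, so reads and library depths could be recovered. The floor of 3 reads covers counting error only. Between replicates the chi-square per degree of freedom was 18.3 to 192, far above counting error.

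limma 3.58.1 in R 4.3.3 (lmFit, eBayes with trend, two-sided) was run on log2(FPKM + 1) for the 6 libraries of each comparison with Benjamini-Hochberg adjustment over 11450 genes. Named genes were the 10 feedback genes, Ptpn11, the genes of each pathway list with an adjusted p of at most 0.05 against wild type (if more than 6, the 3 with the largest log2 fold change in each direction; if none, the 2 with the largest), and the 3 genes most like each feedback gene with such a p. The feedback genes and lists were chosen with earlier results of these data known. Fos in the direct comparison and Ergic1 were named after their values were seen. The values of 1 gene of the RAS-ERK cascade list, which the list's counts include, are not reported here or drawn.

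Alternatives were pseudocounts of 0.1 and 5, no filter and a mean of 5 FPKM, median-of-ratios and quantile scaling, eBayes without trend, all 9 libraries in 1 fit, the replicate number as a block, voom on recovered reads and each library left out. Leaving out the library of each group with the most fibroblast marker RNA was chosen after seeing the data. The fits were tested on simulated data. Tables and figures were made in pandas 2.3.3 and matplotlib 3.10.9, with numpy 2.4.6 under Python 3.11.15.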

Additional observations from a re-analysis of the deposited data

Results flagged for a closer look

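Among Ptpn11, the feedback genes and the genes of the pathway lists, 94 were tested for a difference between the effects of SHP2 loss and of SHP099, by comparing those groups directly (3 libraries each). The difference passed an adjusted p of 0.05 for Fos (log2 fold change 1.56, adjusted p = 0.0163) and for Ptpn11 itself (-1.13, adjusted p = 0.0109), the gene that is deleted in M-Shp2-/- alone. Over 16 alternatives the adjusted p of Fos ranged from 0.00240 to 0.287 and passed in 8. Over 17 alternatives that of Ptpn11 ranged from 0.00124 to 0.146 and passed in 11. With a library left out, both passed only without M-Shp2-/- 3. The number of feedback genes passing was then up to 3. Of the ERK-dependent transcripts up to 6 were lower and up to 3 higher, and of the RAS-ERK cascade up to 5 and 2. Without M-Shp2-/- 3, 7.89% of all genes were lower and 12% higher. No gene of the 94 had all M-Shp2-/- libraries on one side of wild type and all SHP099 libraries on the other.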

How the results depend on the processing

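Of 450 fold changes of the feedback genes recomputed under alternatives, 416 kept their sign and their side of an adjusted p of 0.05, 7 passed it newly, 6 lost it (Dusp5 with SHP099) and 21 changed sign. The count of feedback genes called by the stricter rule was 0 in each comparison under each alternative run but the looser limit of 0.05 at any size, which called 1 with SHP099. In that comparison the count at 0.05 was 0 with no filter (0.15% of all genes lower and 0.128% higher). It was also 0 with a mean of 5 FPKM (where Dusp5 is not tested) and without the libraries richest in fibroblast marker RNA. With a library left out it was 0 to 3. In the direct comparison it was 2 without the fibroblast-rich libraries and 0 to 3 with a library left out.

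All genes called in M-Shp2-/- against wild type (1) were 0 with no filter, without trend, with the replicate block, without the fibroblast-rich libraries and with any library left out (0 to 0), 3 with median-of-ratios scaling, 2 with all 9 libraries in 1 fit and 10 at the looser limit. With SHP099 (19) they were 0 with no filter, 4 without trend, 0 with the block, 9 with voom, 1 without the fibroblast-rich libraries, 797 at the looser limit and 0 to 26 with a library left out (0 without each SHP099 library). In the direct comparison (0) they were 1 with all 9 libraries in 1 fit, 8 at the looser limit, 202 without the fibroblast-rich libraries and 0 to 159 with a library left out, the highest without M-Shp2-/- 3. The cause was not tested.

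In M-Shp2-/- against wild type the sign changed for Dusp4 (-0.0728), Dusp6 (-0.0622) and Spred1 (-0.14) with median-of-ratios scaling, for Dusp6 (-0.0879) and Spred1 (-0.0410) with quantile normalization, and for Dusp4 (-0.0494) and Spred1 (-0.17) without the fibroblast-rich libraries, where Spry2 with SHP099 was 0.00819. With a library left out, values ranged from -0.42 to 0.34 for Dusp2, -0.0117 to 0.23 for Dusp4, -0.24 to 0.45 for Dusp6 and -0.16 to 0.13 for Spred1 in M-Shp2-/-, and from -0.16 to 0.12 for Spry1 and -0.22 to 0.16 for Spry2 with SHP099. All these changes of sign were between values that did not pass the test.

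Whether replicate numbers pair the samples cannot be told from 3 libraries a group. Deviations from group means in same-numbered libraries correlated at 0.492, -0.431 and 0.185 between M-Shp2-/- and wild type, where other pairs of libraries reached 0.544. Between SHP099 and wild type these values were -0.0411, -0.0896 and 0.454, where other pairs reached 0.491. Between M-Shp2-/- and SHP099 they were -0.0143, 0.183 and -0.0467, where other pairs reached 0.204. With the replicate block, 0, 1 and 0 feedback genes passed 0.05 in the 3 comparisons, as without it. Ptpn11 missed 0.05 with the block in M-Shp2-/- against wild type and in the direct comparison (adjusted p of 0.157 and 0.146). Depth limits Spry4, which rests on 0 to 37 reads a library.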
